A study of Saccharomyces cerevisiae with 6 samples.

Results

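The cytoplasmic aminoacyl-tRNA synthetase genes of Saccharomyces cerevisiae were examined as DAmP alleles in pools that lacked either of a pair of nonsense-mediated decay factors. They were taken from a list of 19 genes, each encoding an enzyme (or, for FRS1 and FRS2, a subunit) that attaches 1 amino acid to its tRNA in the cytoplasm, and a gene was kept where it had a value on at least 2 of 6 arrays. This gave 14 genes among the 655 named genes with that many values. Of these, 12 had a value on all 6 arrays and could be compared between all pools. The list carries no prolyl-tRNA synthetase gene.

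A synthetase activates its amino acid with ATP and transfers it to the matching tRNA, and the ribosome then uses the charged tRNA. The enzymes fall into 2 classes, I and II, with unrelated folds of the catalytic domain. Most of these genes are essential in yeast, since no other enzyme charges the same cytoplasmic tRNAs. In a DAmP allele a resistance cassette follows the stop codon of an otherwise intact gene, so that the mRNA has an extended 3' end. Nonsense-mediated decay is a cytoplasmic pathway that destroys mRNAs whose translation ends in an abnormal setting, a far 3' end among them. It needs the helicase Upf1, encoded by NAM7, and its partner Upf2, encoded by NMD2. The study asked which extended mRNAs depend on these factors.

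Each pool was a mix of haploid strains derived from BY4742 and BY4741, in which every strain carried 1 DAmP allele together with 1 deletion common to the whole pool. The deletion was NMD2 in 1 pool, NAM7 in another, and YEL068C, the deletion that the series text gives as the baseline, in the last. All 3 pools therefore held the DAmP alleles, and no pool lacked a deletion. Haploid cells with both alleles were selected and grown for 18 generations in G418 and nourseothricin, and the barcode of each strain was amplified from RNA (labelled Cy3) and from genomic DNA of the same cells (labelled Cy5). Each pool came from 1 cross and was read on 2 arrays that are technical replicates, so the p-values below measure only the spread between arrays.

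Between 658 and 798 probes had a value on an array, with both extremes in the NMD2 pool. A value is a log ratio of a strain's RNA barcode to its DNA barcode, read here as base 2 and centred on the median of 444 features valued on all 6 arrays. The deposited table does not state which dye was the numerator. Values were multiplied by minus 1, and above 0 they then likely mean more RNA, because the 12 measured genes of a list of abundant mRNAs then all lay above the array median in every pool, with medians of 3.34 with NMD2 deleted, 3.27 with NAM7 deleted and 3.19 with YEL068C deleted. The probes of NMD2, NAM7 and YEL068C carried no value. A probe reads the barcode of a strain, and the deletion common to each pool was not checked here. If the direction were the other one, each rise below would be a fall. A pool is a bulk sample, so fewer cells with a transcript and less transcript per cell cannot be told apart. The arrays are limited in number, and this limits the precision of every value.

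The 12 extended synthetase mRNAs valued on all arrays had high ratios in all pools. Of the members outside the 12, WRS1 was above the array median wherever it had a value. FRS2 was below it on the first array of the NMD2 pool (-0.42) and of the NAM7 pool (-0.64), and above it on the second. All 12 fully measured genes lay above the array median in the NMD2, NAM7 and YEL068C pools, as did 50.2%, 50.2% and 49.5% of the 444 features. Their median ratio was 2.07 with NMD2 deleted, 2.06 with NAM7 deleted and 2.13 with YEL068C deleted. In both mutant pools all 12 were also above the upper quartile of the features (1.09 with NMD2 deleted and 1.07 with NAM7 deleted). In the YEL068C pool 10 of 12 were above that quartile (0.96), and TYS1 and HTS1 were below it. The spread between genes was small beside that of all features, with an SD over the 12 genes of 0.37 with NMD2 deleted, 0.35 with NAM7 deleted and 0.57 with YEL068C deleted, against 1.41, 1.43 and 1.39 over the 444 features of the same pools.

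Among the 12 genes valued on all arrays, the same gene had the lowest mean ratio in each pool. HTS1, which encodes both the cytoplasmic and the mitochondrial histidyl-tRNA synthetase, averaged 1.28 ± 0.58 with NMD2 deleted, 1.41 ± 0.60 with NAM7 deleted and 0.68 ± 0.60 with YEL068C deleted (SD, n = 2 each). KRS1, for the lysyl enzyme, was near the top in both mutant pools, with 2.54 ± 0.32 when NMD2 was deleted and 2.61 ± 0.26 when NAM7 was deleted, and it averaged 2.28 ± 0.37 in the YEL068C pool. SES1, for the seryl enzyme, averaged 2.52 ± 0.03 with NMD2 deleted, 2.61 ± 0.09 with NAM7 deleted and 2.07 ± 0.11 with YEL068C deleted, and in the mutant pools it differed from KRS1 by less than the SD of either. GLN4, for the glutaminyl enzyme, averaged 2.38 ± 0.49 with NMD2 deleted, 2.46 ± 0.26 with NAM7 deleted and 2.36 ± 0.28 with YEL068C deleted. KRS1, GLN4, THS1 and CDC60 could not be ordered in the YEL068C pool, where their means differed by less than the SD of each.

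**Figure D1:**
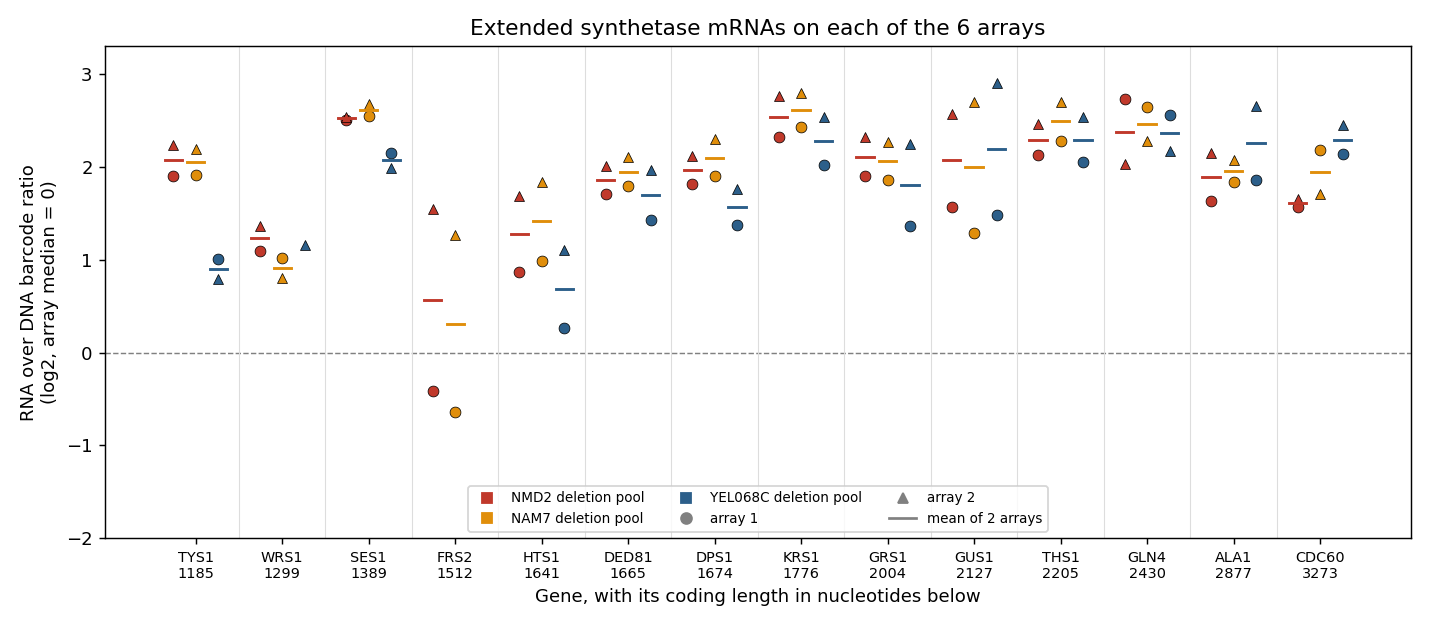
Ratio of RNA to DNA barcode (log2, array median at 0) for the 14 synthetase genes, shortest coding length at the left, with coding length in nucleotides under each symbol. Within a gene the pools stand in the order NMD2, NAM7 and YEL068C, circles are array 1, triangles are array 2 and bars are the mean of both. TYS1 lies near 2 in both mutant pools (2.07 and 2.05) and near 1 in the YEL068C pool (0.90), while CDC60 is lowest in the NMD2 pool.

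The mean of the 2 mutant pools was compared with the YEL068C pool to ask which extended synthetase mRNAs differed where decay was impaired. TYS1, for the tyrosyl enzyme, was 2.23-fold higher in the mutant pools and was the 1 member that passed the test without a block. With the array number as a block, TYS1, SES1, HTS1, DPS1 and KRS1 rose, and ALA1 and CDC60 fell. The 5 members that rose encode the tyrosyl, seryl, histidyl, aspartyl and lysyl enzymes, and those that fell the alanyl and leucyl enzymes. Of the other 5, DED81, GRS1, THS1 and GLN4 had differences between 0.06 and 0.29 and GUS1 had one of -0.16. The median difference of the 12 members was 0.25, with 9 above 0, beside a median of -0.001 over the 444 features, of which 50.0% were above 0. Other lists of genes with high ratios differed from the members in either direction. The 12 measured genes of the abundant mRNA list had a median difference of 0.75, and 8 measured translation factor genes one of -0.09. Without centring of the arrays the median of all features moved by -0.12 and that of the members was 0.13, with 7 above 0.

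The test was limma over all 444 features with Benjamini-Hochberg adjustment at 0.05. Without the block it called 1 of 12 members (TYS1), beside 4.05% of all features. With the block it called 5 members higher, beside 29.7% of all features, and 2 lower, beside 30.2%. Nothing particular to the members is read from these counts. Arrays of the same number deviated together in all pools, and the block removes the part of the spread that they share. It lowered the typical SD from 0.293 to 0.143 and left 2 residual degrees of freedom. With an array also left out fewer remain, and a gene's SE then leaned on a spread common to all features. Without either NAM7 array, TYS1, HTS1 and DPS1 all had an SE of 0.168 with the block. Blocked calls with an array left out therefore say little about a gene's own spread between arrays.

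Among class I enzymes, TYS1 (YGR185C) had the largest difference of all members. Its ratio was 1.91 and 2.23 on the arrays of the NMD2 pool, 1.91 and 2.20 on those of the NAM7 pool, and 1.01 and 0.80 on those of the YEL068C pool. All 4 mutant arrays lay above both YEL068C arrays. The difference was 1.16 (SE 0.22, limma, adjusted p = 0.0454; with the block SE 0.14, adjusted p = 2.29e-05), and it ranked 20 of 444 features. It was 0.90 within arrays numbered 1 and 1.42 within arrays numbered 2. The call without the block was lost when any 1 of the 6 arrays was left out (adjusted p between 0.069 and 0.268), where the difference ranged from 1.05 to 1.27. It was also lost with no centring (0.0819) and over features valued on at least 1 array per pool (0.0693). With the block the TYS1 difference ranged from 0.90 to 1.42 over the 10 alternatives tried, and it passed in those that kept all 6 arrays. Blocked passes with an array left out are not counted for TYS1, HTS1, DPS1 or SES1, since they say little about a gene's own spread.

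CDC60 (YPL160W), for the leucyl enzyme, had the lowest difference and the longest coding sequence of the members measured. It had ratios of 1.57 and 1.65 with NMD2 deleted, 2.18 and 1.71 with NAM7 deleted and 2.14 and 2.45 with YEL068C deleted. The NMD2 arrays lay below both YEL068C arrays, while 1 NAM7 array lay between them. The difference was -0.52 (SE 0.23, limma, adjusted p = 0.206), and with the block it fell (SE 0.15, adjusted p = 0.0105). The blocked call was lost under 4 of 10 alternatives, which were leaving out either NMD2 array, the second NAM7 array or the second YEL068C array.

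GLN4 and GUS1, for the glutaminyl and glutamyl enzymes, complete the class I genes compared. GLN4 (YOR168W) had ratios of 2.73 and 2.03 with NMD2 deleted, 2.64 and 2.28 with NAM7 deleted and 2.56 and 2.17 with YEL068C deleted. The pools overlapped, and the difference of 0.06 (SE 0.28, limma, adjusted p = 0.939; 0.717 with the block) became -0.07 without centring. GUS1 (YGL245W) had ratios of 1.57 and 2.57 with NMD2 deleted, 1.29 and 2.70 with NAM7 deleted and 1.48 and 2.91 with YEL068C deleted. Here the arrays of each pool were farther apart than the pools, and the difference was -0.16 (SE 0.57, limma, adjusted p = 0.885; 0.299 with the block).

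Among class II enzymes, SES1 (YDR023W), for the seryl enzyme, had ratios of 2.50 and 2.54 with NMD2 deleted, 2.55 and 2.67 with NAM7 deleted and 2.15 and 1.99 with YEL068C deleted. Both mutant pools lay above the YEL068C pool with no overlap. The difference was 0.49 (SE 0.19, limma, adjusted p = 0.168), and with the block it rose (SE 0.12, adjusted p = 0.00385). The blocked call was lost only without the second YEL068C array (adjusted p = 0.0898), among the 10 alternatives tried.

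HTS1 (YPR033C) showed how strongly the array number entered. It had ratios of 0.87 and 1.69 with NMD2 deleted, 0.99 and 1.84 with NAM7 deleted and 0.26 and 1.11 with YEL068C deleted. The second array of each pool was the higher one, and the second YEL068C array lay above the first array of either mutant pool. Within array numbers the difference was 0.67 on the first arrays and 0.66 on the second. It was 0.66 overall (SE 0.40, limma, adjusted p = 0.323), and with the block it rose (SE 0.12, adjusted p = 0.000404) under all 10 alternatives.

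DPS1 (YLL018C), for the aspartyl enzyme, had ratios of 1.82 and 2.12 with NMD2 deleted, 1.90 and 2.30 with NAM7 deleted and 1.37 and 1.76 with YEL068C deleted. Every mutant array was above both YEL068C arrays. The difference was 0.47 (SE 0.24, limma, adjusted p = 0.258), with 0.49 on the first arrays and 0.45 on the second, and with the block it rose (SE 0.12, adjusted p = 0.00407) under all 10 alternatives. DED81 (YHR019C), for the asparaginyl enzyme of nearly the same coding length, had ratios of 1.71 and 2.01 with NMD2 deleted, 1.79 and 2.11 with NAM7 deleted and 1.43 and 1.97 with YEL068C deleted. Its pools overlapped, and the difference of 0.21 did not pass (SE 0.25, limma, adjusted p = 0.64; 0.158 with the block). DED81 is the 1 measured member on the chromosome of a deleted gene, NMD2, and lies more than 100 kb from it.

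KRS1 (YDR037W) had ratios of 2.32 and 2.77 with NMD2 deleted, 2.43 and 2.80 with NAM7 deleted and 2.02 and 2.54 with YEL068C deleted. The first mutant arrays were below the second YEL068C array. Its difference was 0.30 (SE 0.27, limma, adjusted p = 0.516), and although it rose with the block (adjusted p = 0.0442), that call was lost under 9 of 10 alternatives. GRS1 (YBR121C), for the glycyl enzyme of the cytoplasm and the mitochondrion, had ratios of 1.90 and 2.32 with NMD2 deleted, 1.86 and 2.27 with NAM7 deleted and 1.36 and 2.24 with YEL068C deleted. Its difference of 0.29 (SE 0.32, limma, adjusted p = 0.605; 0.082 with the block) came mainly from the first arrays, with 0.52 there and 0.06 on the second.

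THS1 (YIL078W), for the threonyl enzyme, had ratios of 2.13 and 2.46 with NMD2 deleted, 2.28 and 2.70 with NAM7 deleted and 2.05 and 2.54 with YEL068C deleted. The difference was 0.10 (SE 0.26, limma, adjusted p = 0.84; 0.5 with the block) and turned to -0.02 without centring and to -0.01 with quantile normalization. ALA1 (YOR335C), for the alanyl enzyme of the cytoplasm and the mitochondrion, was the class II gene with the longest coding sequence measured and the 1 with a negative difference. Its ratios were 1.64 and 2.15 with NMD2 deleted, 1.84 and 2.08 with NAM7 deleted and 1.86 and 2.66 with YEL068C deleted. The difference was -0.33 (SE 0.30, limma, adjusted p = 0.52), and with the block it fell (adjusted p = 0.0485), a call lost under 5 of 10 alternatives. With the second YEL068C array left out and no block, it was 0.07.

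**Figure D2:**
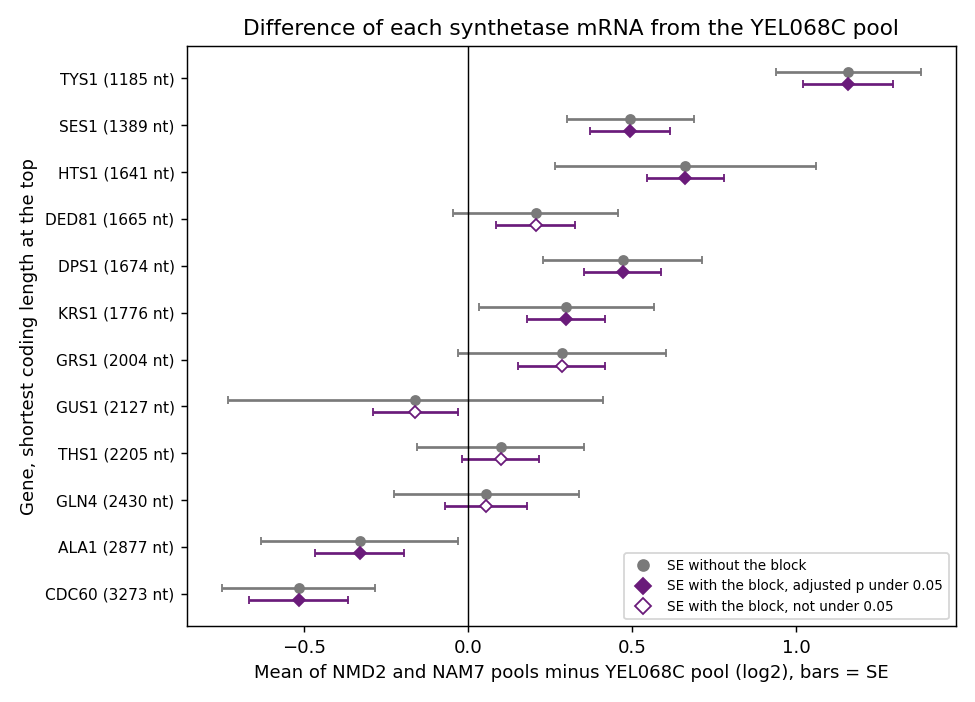
Difference between the mean of the NMD2 and NAM7 pools and the YEL068C pool (log2, horizontal axis) for the 12 synthetase genes valued on all arrays, shortest coding length at the top, with bars of 1 SE without the block (grey circles) and with it (diamonds, filled where the adjusted p is under 0.05). Differences run from 1.16 for TYS1 at the top to -0.52 for CDC60 at the bottom.

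Counted without a model, 3 members (TYS1, SES1 and DPS1) had all 4 mutant arrays above both YEL068C arrays, which held for 22.1% of all features. Set against the YEL068C array of the same number, 7 members were higher in all 4 pairs (TYS1, SES1, HTS1, DED81, DPS1, KRS1 and GRS1), beside 35.6% of features. Only ALA1 among the 12 was lower in all 4 pairs, beside 36.9%.

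Each mutant pool was also compared with the YEL068C pool on its own. The 2 comparisons share the YEL068C arrays. In the NMD2 pool no member and 0.0% of all features passed limma without the block. There were 99 features at an unadjusted p under 0.05, with TYS1 and CDC60 among them. With the block, 4 members rose (TYS1, SES1, HTS1 and DPS1), beside 28.4% of all features, and 1 fell (CDC60), beside 25.5%. TYS1 differed by 1.17 (SE 0.26, limma, adjusted p = 0.0888; 8.97e-05 with the block). CDC60 differed by -0.69 (adjusted p = 0.214; 0.00563 with the block).

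HTS1 was 0.60 higher in the NMD2 pool (limma, adjusted p = 0.479; 0.0027 with the block). SES1 was 0.45 higher (0.281; 0.0162 with the block) and DPS1 0.41 higher (0.419; 0.0225 with the block) on the same tests. TYS1 and HTS1 kept the blocked call in the alternatives that kept all 6 arrays. Over all 10 alternatives, CDC60 lost it under 3, SES1 under 5 and DPS1 under 6.

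In the NAM7 pool no member and 0.0% of all features passed without the block, and TYS1 was the 1 member among 91 features at an unadjusted p under 0.05. With the block the same 4 members rose, beside 25.7% of all features, and 0 members fell, beside 25.0%. TYS1 differed by 1.15 (SE 0.26, limma, adjusted p = 0.099; 9.72e-05 with the block). HTS1 was 0.73 higher (0.409; 0.000743 with the block), SES1 0.54 higher (0.24; 0.00654) and DPS1 0.54 higher (0.329; 0.00549) in the same limma fits. CDC60 differed by -0.35 (0.505; 0.115 with the block) and did not pass. With the block it passed under 4 of 10 alternatives, and its difference ran from -0.69 without the first NAM7 array to -0.02 without the second. TYS1 and HTS1 kept the blocked call under all 10 alternatives, DPS1 lost it under 1 and SES1 under 3.

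The 2 mutant pools were set against each other to ask whether loss of Upf2 and of Upf1 gave different ratios. No member passed in NMD2 minus NAM7, with or without the block, and neither did any feature (0.0% in both fits). At an unadjusted p under 0.05, limma gave 2 features without the block and 55 with it, with 0 members in either. Member differences ran from -0.34 (CDC60) to 0.08 (GUS1), with a median of -0.08 and 3 above 0, beside a median of 0.02 over all features, of which 54.5% were above 0. CDC60 had the largest difference (SE 0.27, adjusted p = 1.0; 0.445 with the block). It was -0.10 without the first NAM7 array and -0.57 without the second, and with the block -0.0 and -0.67, so its size rests on which NAM7 array is used. The NMD2 arrays lay below both NAM7 arrays for 2 members, SES1 and CDC60, which was so for 8.11% of all features. With 2 technical arrays a pool, a p that misses the threshold does not show that the pools were alike.

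Coding length ordered the differences among the 12 synthetase genes valued on all arrays. The members range from 1185 nucleotides (TYS1) to 3273 (CDC60), and Spearman's rank correlation between coding length and the difference from the YEL068C pool was -0.93 over the 12 members. It was -0.85 on the first arrays, -0.95 on the second, and -0.88 over the 10 left without the shortest and the longest. WRS1, second shortest of the members at 1299 nucleotides, lacked a value on 1 array and is not among the 12. Its 1 YEL068C value (1.16) lay within the range of its mutant arrays (0.81 to 1.36). No rise was therefore seen for WRS1, unlike TYS1 and SES1, its neighbours in length. Over the 433 named genes the rank correlation was -0.61. For the single pools it was -0.92 over the members in NMD2 minus YEL068C (-0.59 over all genes) and -0.93 in NAM7 minus YEL068C (-0.62 over all genes). In NMD2 minus NAM7 it was -0.11 over the members and -0.03 over all genes. These are descriptions, since the points share their arrays and the relation was known for these data when the genes were chosen.

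Set against all genes of the same length class, none of the 12 members valued on all arrays lay below the median of its class. WRS1, with a value on 1 YEL068C array, was not placed in a class. The classes are wide, their medians include the members, and a member's place within its class was not adjusted for. TYS1 was 0.91 above the median of 0.25 for the 109 genes from 1000 to 1500 nucleotides, and SES1 0.24 above it. In the class from 1500 to 2000 nucleotides (80 genes, median -0.11), HTS1 was 0.77, DPS1 0.58, KRS1 0.41 and DED81 0.31 above it. In the class from 2000 to 3000 nucleotides (76 genes, median -0.34), GRS1 was 0.62, THS1 0.43, GLN4 0.39 and GUS1 0.17 above the median, and ALA1 was at it (0.003). CDC60 was 0.09 above the median of -0.60 for the 52 longer genes. The class II genes had a median difference of 0.29 and a median coding length of 1725 nucleotides, and the class I genes a median difference of -0.05 and a median length of 2278.5 nucleotides, so class and length cannot be told apart in 8 and 4 genes.

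**Figure D3:**
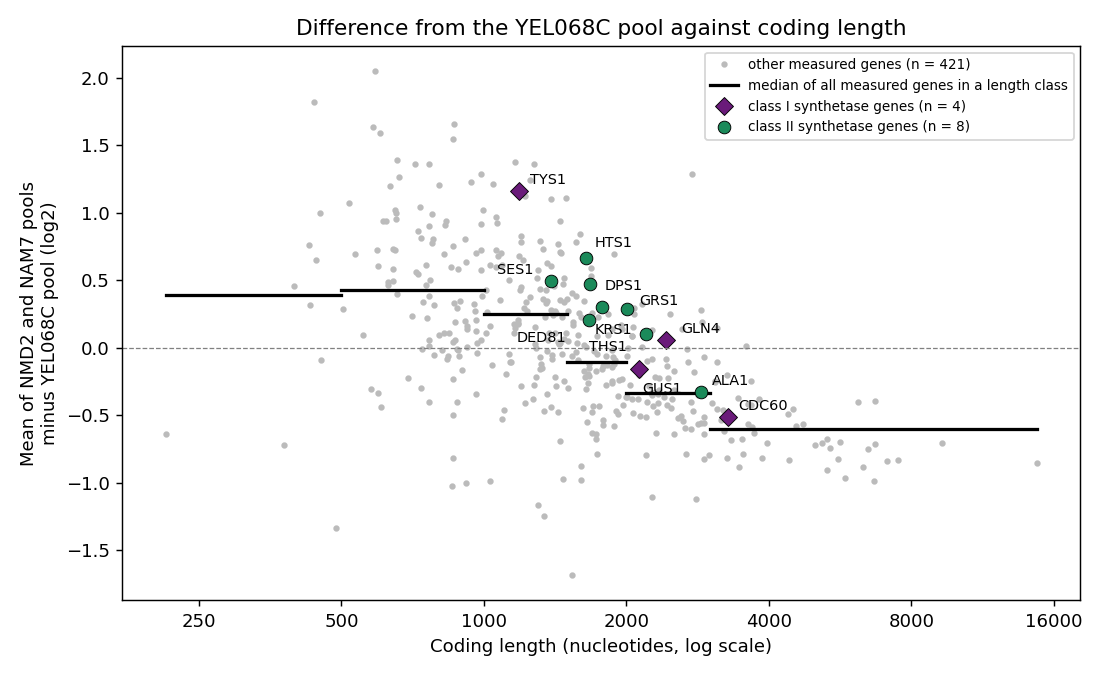
Difference between the mean of the NMD2 and NAM7 pools and the YEL068C pool (log2, vertical axis) against coding length (nucleotides, log axis) for the 433 named genes, with class I synthetase genes as diamonds, class II as circles, other genes as grey dots and the median of each length class as a bar. Among the 12 synthetase genes valued on all arrays, longer genes have lower differences, with TYS1 at 1.16 and CDC60 at -0.52. None of the 12 is below the bar of its class, and WRS1 is not drawn.

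Coding length also ordered the ratios themselves in the YEL068C pool, while the 12 members showed no such order in the mutant pools. The rank correlation between coding length and the ratio itself was -0.07 over the 12 members with NMD2 deleted, -0.11 with NAM7 deleted and 0.80 with YEL068C deleted. Over the 433 genes it was -0.15, -0.14 and 0.12 in the same pools. TYS1 and HTS1 had the lowest ratios of the 12 members in the YEL068C pool. Without them the rank correlation over the other 10 members was -0.33 with NMD2 deleted, -0.41 with NAM7 deleted and 0.73 with YEL068C deleted. On single arrays, over all 12, it was -0.14 and -0.15 with NMD2 deleted, 0.13 and -0.10 with NAM7 deleted, and 0.52 and 0.73 with YEL068C deleted.

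**Figure D4:**
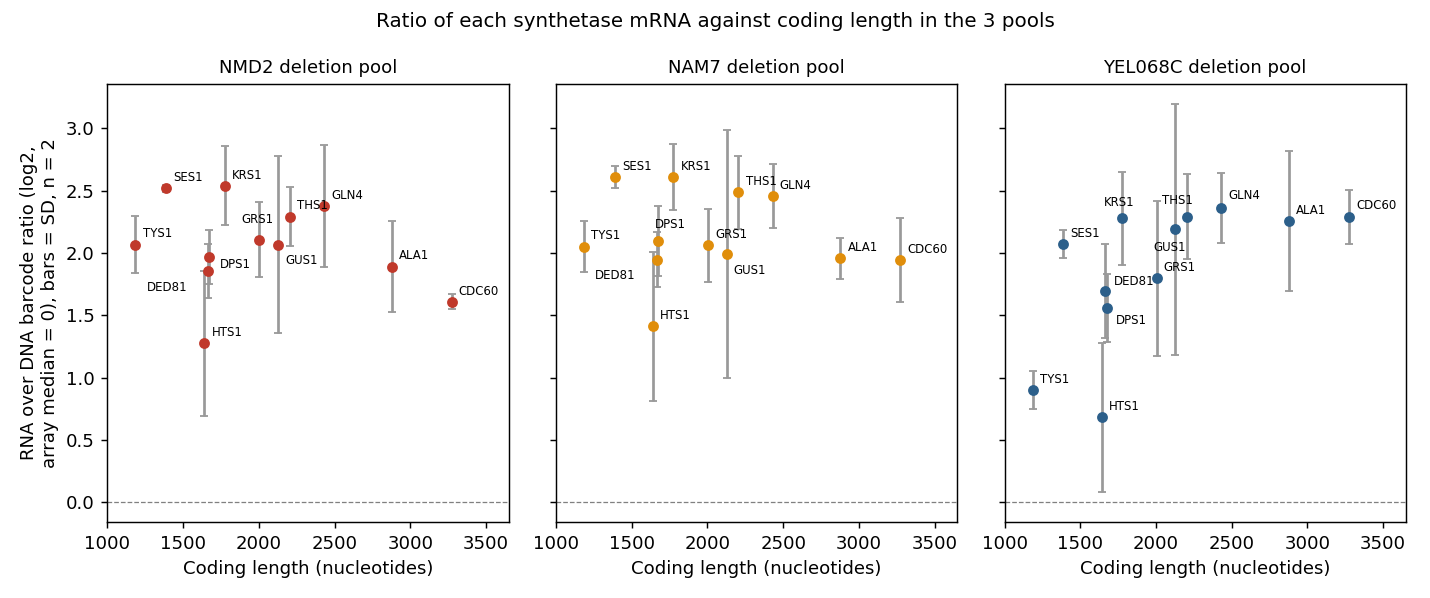
Ratio of RNA to DNA barcode (log2, array median at 0) against coding length (nucleotides) for the 12 synthetase genes in the NMD2, NAM7 and YEL068C pools, each point the mean of 2 arrays with a bar of 1 SD. In the YEL068C pool the ratio is higher in longer genes (rank correlation 0.80), and in the mutant pools the points show no such order (-0.07 with NMD2 deleted and -0.11 with NAM7 deleted).

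The second array of a pool gave most synthetase genes a higher ratio than the first. The median of array 2 minus array 1 over the 12 members was 0.33 with NMD2 deleted, 0.34 with NAM7 deleted and 0.51 with YEL068C deleted, against 0.17, 0.01 and 0.07 over all features. It was positive in every pool for 8 members, as for 41.4% of features. GUS1 moved most among the 12, by 1.01 with NMD2 deleted, 1.41 with NAM7 deleted and 1.43 with YEL068C deleted. Only GLN4 moved the other way in all pools, by -0.70, -0.37 and -0.40 in that order of pools, as 33.1% of features did. What the arrays of a number shared is not stated, and its part in these shifts was not tested.

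FRS2 and WRS1 were valued on fewer arrays and entered no test. WRS1 (YOL097C), for the class I tryptophanyl enzyme, had ratios of 1.10 and 1.36 in the NMD2 pool, 1.02 and 0.81 in the NAM7 pool and 1.16 on the 1 YEL068C array with a value. The YEL068C value lay within the range of the mutant arrays. WRS1 has the second shortest coding sequence of the members, 1299 nucleotides. FRS2 (YFL022C), a subunit of the class II phenylalanyl enzyme, had ratios of -0.42 and 1.55 in the NMD2 pool and -0.64 and 1.27 in the NAM7 pool, and no value in the YEL068C pool. Its second array was higher than the first by 1.97 in the NMD2 pool and 1.91 in the NAM7 pool. Of 505 features valued on all 4 mutant arrays, 5, FRS2 included, had a second array higher by at least 1.91 in both pools. Gaps of that size in the other direction were not counted. A missing value on both YEL068C arrays was shared by 30 of those 505 features (5.94%). FRS1, ILS1, MES1, VAS1 and YDR341C, for the other phenylalanyl subunit and the isoleucyl, methionyl, valyl and arginyl enzymes, had no value.

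Where a gene had 2 valued probes, they gave nearly the same ratio. GRS1, KRS1 and SES1 had 2 each, and the largest difference between probes on any array was 0.07 for GRS1, 0.12 for KRS1 and 0.14 for SES1. These are smaller than the differences between arrays of a pool for most members, but not for SES1. For SES1, array 2 minus array 1 was 0.04 with NMD2 deleted, 0.125 with NAM7 deleted and -0.16 with YEL068C deleted.

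Other genes that serve tRNAs and translation were counted for comparison. YHR020W, for the prolyl enzyme and outside the member list, had a difference of 0.15 between the mutant pools and the YEL068C pool (SE 0.40, limma, adjusted p = 0.84; 0.323 with the block). Of 32 genes for tRNA processing and modification, 14 were measured, with a median difference of -0.04 in the mean comparison. None of them passed without the block, and 4 rose and 6 fell with it. THG1, which adds a guanylate to histidine tRNA, differed by 1.36 (adjusted p = 0.08; 4.18e-06 with the block). RNA1, the GTPase-activating protein of the Ran cycle, differed by 1.12 (0.0594; 5.82e-05) and SEN34, a subunit of the tRNA splicing endonuclease, by 0.91 (0.0731; 5.09e-05) in the same limma fits. Over the 14, the median ratio was -0.64 with NMD2 deleted, -0.68 with NAM7 deleted and -0.54 with YEL068C deleted, lower than for synthetase genes. The ranges overlapped in the YEL068C pool, where the highest of the 14 (1.04) was above TYS1 (0.90) and HTS1 (0.68).

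Of 35 translation factor genes, 8 were measured, with a median difference of -0.09. SUI3, for the beta subunit of initiation factor eIF2, fell by 1.03 (SE 0.20, limma, adjusted p = 0.0454) and no other passed without the block. With it 3 rose and 2 fell. Of all features, 4.05% passed without the block, and 29.7% rose and 30.2% fell with it. EFB1, for a nucleotide exchange factor of elongation, differed by 1.28 (adjusted p = 0.0637; 4.18e-06 with the block) and SUI2, for the alpha subunit of eIF2, by -1.0 (0.0697; 5.33e-05). The median ratio of the 8 was 2.34 with NMD2 deleted, 2.32 with NAM7 deleted and 2.22 with YEL068C deleted, close to that of the synthetase genes. None of 14 mitochondrial synthetase genes had a value on all 6 arrays, and neither did ARC1, a cofactor of 2 synthetases, or GRS2, a paralog of GRS1.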

How the data were processed

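Per the labels, barcodes were amplified from RNA (Cy3) and genomic DNA (Cy5) of 3 DAmP strain pools, 2 arrays each. The authors deposited 1 table of 15743 probe rows of log ratios, read here as log2 from their range; scanner intensities were not analysed here, and base, numerator and scaling are not given in the sources used here. A value was present for 843 probes, of which 827 matched 1 gene in the platform table, 0 several and 16 none. Signs were turned, probes averaged per gene, and 444 features valued on all 6 arrays (433 named genes, 11 unnamed probes) centred on each array's median. Pools were compared with limma 3.58.1 in R 4.3.3 (lmFit, eBayes, two-sided, Benjamini-Hochberg threshold 0.05), 1 term per pool, 3 residual degrees of freedom. The procedure was also run on simulated data with an array-number shift of the form that the block removes. That run does not show that the block suits these arrays.

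Array numbers come from the sample titles. Deviations of same-numbered arrays correlated at 0.894 (NMD2 with NAM7), 0.853 (NMD2 with YEL068C) and 0.891 (NAM7 with YEL068C), all above 0.1, so the numbers were taken as pairs and a fit with the number as a block is given beside each result. Alternatives left out each array, dropped centring, used quantile normalization, 1 probe per gene, features valued on at least 1 array per pool, or eBayes with trend and robust.

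Coding length is the gene span in the RefSeq R64 table. All members with values were named, and from each other list the 3 smallest p-values. Members and lists were chosen with earlier results of these data known. The cysteinyl gene YNL247W was not used here.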

Additional observations from a re-analysis of the deposited data

How the results depend on the processing

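With the array number as a replicate block, which pairs same-numbered arrays, the mean comparison called 266 features and 7 members, NMD2 minus YEL068C 239 features and 5 members, and NAM7 minus YEL068C 225 features and 4 members. The block also moved calls of SES1, HTS1, DPS1, KRS1, ALA1 and CDC60, given above, and it left NMD2 minus NAM7 at 0. Without it, the mean comparison called 0 features and 0 members with no centring, 2 features and 0 members over features valued on at least 1 array per pool, and from 0 to 9 features and 0 members with 1 array left out; NMD2 minus YEL068C called from 0 to 7 features with 1 array left out. The TYS1 difference was between 1.04 and 1.27 under 12 alternatives, with adjusted p (limma) from 2.29e-05 to 0.268; it missed the threshold with no centring (0.0819) and over features valued on at least 1 array per pool (0.0693).

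With 1 array left out and no block, the mean difference ran from -0.062 to 0.472 for DED81, from -0.155 to 0.725 for GRS1, from -0.875 to 0.55 for GUS1, from -0.145 to 0.34 for THS1, from -0.142 to 0.252 for GLN4 and from -0.73 to 0.065 for ALA1, so none of these has a settled direction in that fit. HTS1 (0.24 to 1.085), DPS1 (0.278 to 0.662) and KRS1 (0.035 to 0.56) stayed above 0 there. With or without the block, THS1 was -0.022 with no centring and -0.012 with quantile normalization, and GLN4 was -0.065 with no centring. In the blocked fits with 1 array left out, the members called numbered from 4 to 6 in the mean comparison (195 to 247 features), from 2 to 5 in NMD2 minus YEL068C (124 to 235 features) and from 2 to 6 in NAM7 minus YEL068C (150 to 203 features). GLN4 ran from -0.024 to 0.134 there, and SES1 in NMD2 minus NAM7 from -0.18 to 0.005. NMD2 minus NAM7 called from 0 to 5 features with 1 array left out, 6 with no centring, 4 with quantile normalization and 5 with 1 probe per gene. Why these counts moved was not tested. The blocked alternatives were chosen after seeing the data. Signal over background was not analysed here, so a low ratio cannot be set against a detection limit.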
